A study of Homo sapiens with 2 samples.

Results

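The SLC25A genes encode the mitochondrial carrier family, and their DNA methylation was read here in SH-SY5Y cells exposed to Mdivi-1 and in SH-SY5Y cells given its solvent DMSO, the control. Dose and time of exposure are not given in the sources used here. Members were taken by symbol: every autosomal position whose promoter or gene annotation, in the authors' deposited table, named SLC25A followed only by digits. This gave 43 of 29586 annotated autosomal genes and 4783 CpGs covered by 10 or more reads in each library, of 5243 deposited positions. The members SLC25A5, SLC25A6, SLC25A14, SLC25A43 and SLC25A53, on the X chromosome, lie outside the rule. SH-SY5Y is an established human neuroblastoma line with properties of sympathetic nerve cells, and the compound Mdivi-1 is applied to cells to inhibit the division of mitochondria. The assay was methyl-capture bisulfite sequencing, in which unmethylated cytosines are converted and methylated ones are not. With 1 library per group and 2 in all, no difference had replicates to check it against. Mean coverage over the members' CpGs was 47.1 reads in the Mdivi-1 library and 38.4 reads in the control.

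Carriers of this family sit almost all in the inner mitochondrial membrane and exchange nucleotides, phosphate, carboxylates, amino acids and cofactors between the matrix and the cytosol. Most share one fold, and they differ in the substrate they move and in the tissue that uses them. Methylation of a CpG-dense promoter is generally associated with a silent gene, while methylation along the gene body is common in genes that are transcribed. Expression was not measured in these libraries, so a level below is a methylation level and nothing more. In bulk DNA a share of cells with a methylated promoter and a share of methylated copies within each cell cannot be told apart.

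The starts of 4 members show the range of promoters in the family. The letters below run 5′ to 3′ over the 250 bases before the RefSeq start, in the GRCh38.p14 build. Capitals mark each CpG with a measured level. The sequences were placed on the deposited table by the spacing of their CpGs, with no conversion of coordinates. SLC25A31 and SLC25A52 are shown as methylated members, SLC25A34 as one whose start is bare although the rest of its promoter is methylated, and SLC25A3 as one bare throughout.
SLC25A31 (chromosome 4, plus strand): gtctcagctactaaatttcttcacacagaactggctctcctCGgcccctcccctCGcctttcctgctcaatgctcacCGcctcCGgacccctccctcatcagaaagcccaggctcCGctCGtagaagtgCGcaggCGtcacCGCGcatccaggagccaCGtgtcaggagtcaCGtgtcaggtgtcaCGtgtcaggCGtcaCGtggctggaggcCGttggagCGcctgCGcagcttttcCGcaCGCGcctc
SLC25A52 (chromosome 18, minus strand): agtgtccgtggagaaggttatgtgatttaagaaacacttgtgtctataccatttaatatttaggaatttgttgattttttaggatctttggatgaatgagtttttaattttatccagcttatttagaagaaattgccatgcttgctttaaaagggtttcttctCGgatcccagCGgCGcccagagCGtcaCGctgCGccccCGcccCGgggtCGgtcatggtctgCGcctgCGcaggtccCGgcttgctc
SLC25A34 (chromosome 1, plus strand): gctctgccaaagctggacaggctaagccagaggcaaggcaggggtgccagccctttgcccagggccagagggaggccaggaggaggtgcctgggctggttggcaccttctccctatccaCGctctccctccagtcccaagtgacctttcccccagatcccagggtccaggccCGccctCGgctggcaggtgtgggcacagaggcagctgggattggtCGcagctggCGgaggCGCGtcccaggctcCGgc
SLC25A3 (chromosome 12, plus strand): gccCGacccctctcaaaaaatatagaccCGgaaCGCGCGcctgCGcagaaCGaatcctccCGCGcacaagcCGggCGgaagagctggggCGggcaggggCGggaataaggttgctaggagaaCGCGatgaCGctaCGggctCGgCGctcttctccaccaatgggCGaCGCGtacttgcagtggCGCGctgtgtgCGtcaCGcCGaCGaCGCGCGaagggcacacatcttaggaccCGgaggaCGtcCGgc

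The 21 CpGs of the SLC25A31 sequence were all measured and averaged 94.3% in the Mdivi-1 library and 91.9% in the control. Their levels spanned 53.4% to 100% in the Mdivi-1 library and 56.0% to 100% in the control. SLC25A31 encodes the ADP/ATP carrier made chiefly in testis, and in both libraries its start was methylated on nearly every CpG. Of the 13 CpGs of SLC25A52, an NAD+ carrier gene, 12 were measured, and they averaged 84.1% in the Mdivi-1 library and 82.5% in the control. They spanned 42.9% to 98.3% in the Mdivi-1 library and 28.6% to 100% in the control. SLC25A34, a carrier related to SLC25A35, averaged 4.61% in the Mdivi-1 library and 3.27% in the control over 8 CpGs. The 34 CpGs of SLC25A3, the phosphate carrier that feeds ATP synthesis, averaged 1.15% in the Mdivi-1 library and 1.12% in the control, with no CpG above 6.90% in the Mdivi-1 library or 6.25% in the control. Both libraries stood near the same level over each of the 4 sequences, as the plot of these CpGs by distance shows, though single CpGs differed in either direction. In SLC25A31 a CpG had 85.7% in the Mdivi-1 library and 100% in the control, and another had 97.0% in the Mdivi-1 library and 77.8% in the control.

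**Figure D1:**
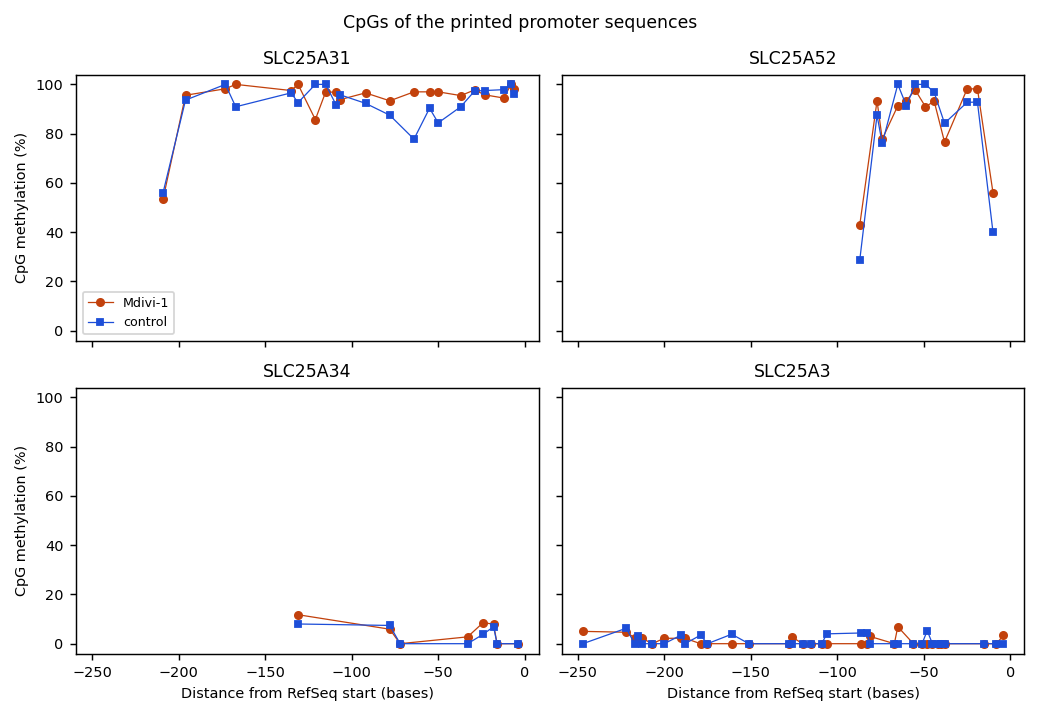
Methylation level in percent of each measured CpG against its distance in bases from the RefSeq start, with Mdivi-1 as orange circles and the control as blue squares. Most CpGs of SLC25A31 and SLC25A52 lie near the top in both libraries, apart from 1 of SLC25A31 and 2 of SLC25A52 between 28.6% and 56.1%, whereas SLC25A34 stays at or below 11.8% and SLC25A3 at or below 6.90% in both.

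SLC25A31 holds the hexamer CACGTG, which reads the same on both strands, at 4 places in those 250 bases. The CpGs within these copies, in order toward the start, were at 96.6%, 93.3%, 97.0% and 97.0% in the Mdivi-1 library, against 92.3%, 87.5%, 77.8% and 84.4% in the control. All 4 were higher in the Mdivi-1 library, and the third had the smallest unadjusted p of them, 0.0387 by the two-sided Fisher exact test, with an adjusted p of 1. The hexamer was chosen after these levels had been seen. Of the 45 RefSeq promoters of 35 member genes, 8 (17.8%) hold CACGTG in the 250 bases before the start, against 6.34% of 35116 promoters of all genes. GGGCGG, searched on both strands, was in 62.2% of the members' promoters and 42.6% of all, and CCAAT, also on both strands, was in 42.2% and 32.0%. None of these motifs contains another, and a match of letters is not a bound site.

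The first comparison addressed whether Mdivi-1 exposure went with another level of methylation in the carriers' promoters. A promoter level is the mean over its CpGs in percent, and a difference is Mdivi-1 minus control in percentage points. Promoter CpGs were found for 42 members, all but SLC25A15, and 41 promoters had at least 5. Differences ran from -3.51 points in SLC25A12 to 4.99 points in SLC25A18. None of the 41 was past the rule of size, which a region of 5 or more CpGs meets when it differs by 10 points or more on average and 80% of its CpGs share that direction. Over all autosomal promoters 55 of 22658 were past it, or 0.243%. The median level of the members was 14.9% in the Mdivi-1 library and 14.9% in the control, and the median difference was 0.471 points. Levels were higher with Mdivi-1 in 31 promoters and lower in 10, so 75.6% were higher, where 58.3% of all autosomal promoters were. The median difference over all of these was 0.198 points.

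Counting error was taken in 2 ways, with reads of different CpGs independent, or with a region treated as 1 CpG at its mean level and mean coverage. The second error is larger, and it overstates the error of shared reads where a region mixes bare and methylated CpGs or is longer than reads can span. By the smaller error, 4 of 41 member promoters (9.76%) differed by over 1.96 times their error, against 11.6% of all promoters. By the larger error 0 of 41 did, and also 0 of all 22658 autosomal promoters, so that 0 is not particular to the members. The 4 were SLC25A18, SLC25A12, the glutathione carrier SLC25A40 and the coenzyme A carrier SLC25A42, with differences of 4.99, -3.51, 0.731 and 1.20 points, the last 2 of them named after their values had been seen. These errors cover the counting of reads only, since reads may be PCR copies and cultures may vary. The plot of differences shows both promoters and gene bodies with the smaller error.

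**Figure D2:**
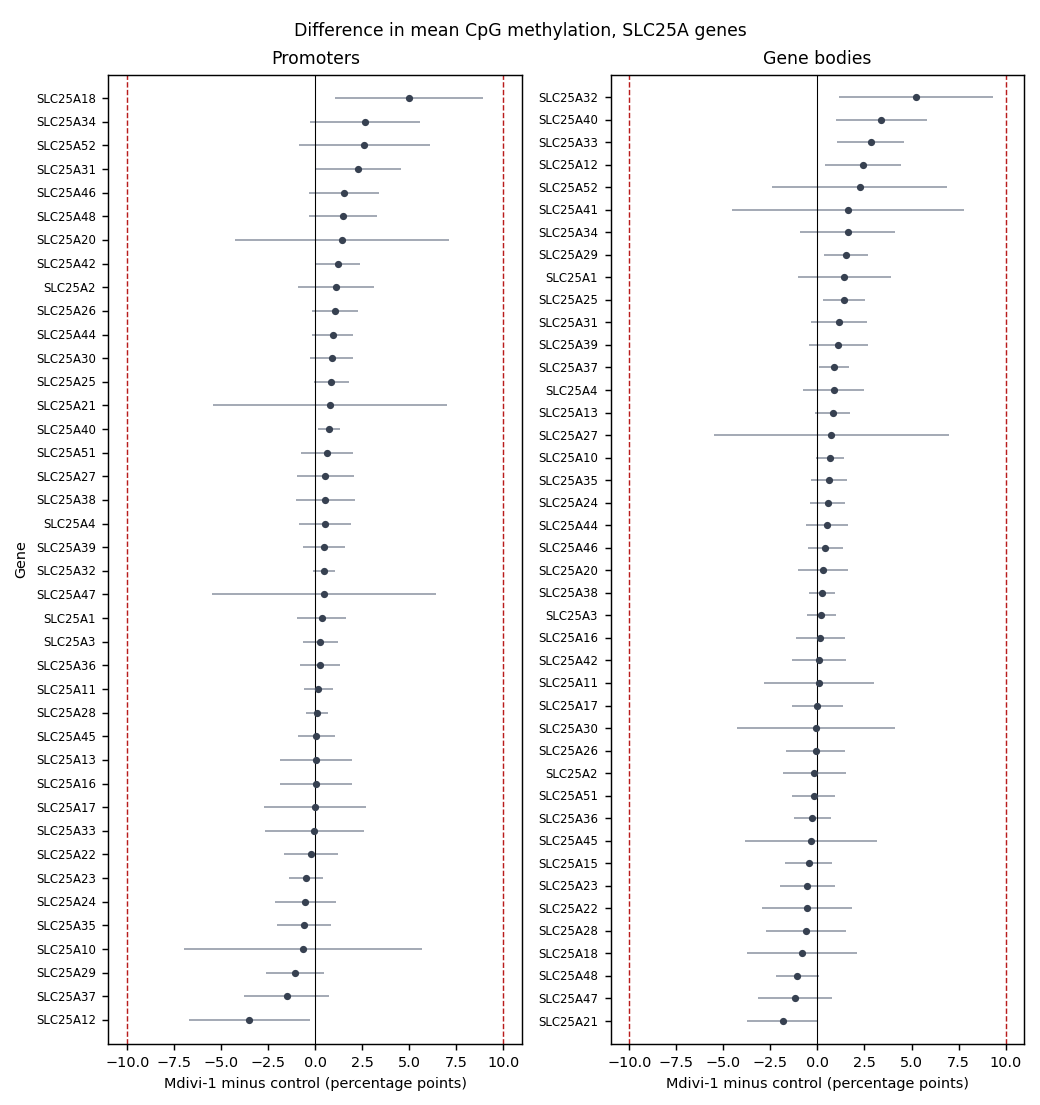
Difference in mean CpG methylation, Mdivi-1 minus control in percentage points, for 40 promoters (left) and 42 gene bodies (right), sorted by size. Bars span 1.96 counting errors with CpGs independent, and dashed lines mark 10 points. All points lie between the dashed lines, from -3.51 to 4.99 for promoters and from -1.86 to 5.24 for gene bodies.

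Single CpGs were compared by a two-sided Fisher exact test of methylated and unmethylated reads, which compares these libraries and not the conditions. Of the 4783 members' CpGs 0 were called at an adjusted p under 0.05 with at least 20 points of difference, against 15 of 2458231 autosomal CpGs, or 0.00061%. At an unadjusted p under 0.05 there were 56 (1.17%), where the share over all autosomal CpGs was 2%. The smallest unadjusted p, 0.00520, belonged to an intronic CpG of SLC25A12 at chr2:172750425 (hg19, as are all coordinates from here on). It was methylated on 10 of 193 reads (5.18%) in the Mdivi-1 library and on 1 of 198 reads (0.505%) in the control, and its adjusted p was 1.

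Carriers of adenine nucleotides exchange ADP for ATP, or ATP-Mg for phosphate, across the inner membrane. Among SLC25A4, SLC25A23, SLC25A24, SLC25A25 and SLC25A31, 3 promoters were higher in the Mdivi-1 library and 2 lower, with a median difference of 0.53 points. SLC25A31 had the second highest promoter level of the family, 90.9% in the Mdivi-1 library and 88.6% in the control over 28 CpGs at chr4:128650707-128651550. Its gain of 2.25 points had counting errors of 1.16 and 6.57 points, and 18 CpGs were higher and 9 lower in the Mdivi-1 library.

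SLC25A4, the ADP/ATP carrier of heart and muscle, had 20.02% in the Mdivi-1 library and 19.5% in the control over 42 promoter CpGs. Its 25 island CpGs were at 1.71% in the Mdivi-1 library and 1.35% in the control, and its 17 other promoter CpGs at 46.9% in the Mdivi-1 library and 46.2% in the control. SLC25A4 gave a difference of 0.53 points as a mean over CpGs and 5.01 points with pooled reads, so its size rests on how CpGs of unequal depth are weighted. SLC25A41, an ATP-Mg/phosphate carrier gene, had only 3 promoter CpGs, at 80.4% in the Mdivi-1 library and 68.8% in the control, too few for the rule of size.

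SLC25A24 and SLC25A25, carriers that exchange ATP-Mg for phosphate, have several start regions with opposite levels. In SLC25A24 the region at chr1:108735458-108735894 had 93.2% in the Mdivi-1 library and 95.1% in the control over 13 CpGs. The other SLC25A24 region, at chr1:108743072-108743880, had 11.6% in the Mdivi-1 library and 11.4% in the control over 26 CpGs. One start region of SLC25A24 was thus methylated and the other mostly bare in both libraries.

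SLC25A25 has 3 such regions on chromosome 9. The first, over 83 CpGs, had 36.2% in the Mdivi-1 library and 35.9% in the control. The second was at 91.2% in the Mdivi-1 library and 92.5% in the control over 10 CpGs. The third was at 68.4% in the Mdivi-1 library and 65.0% in the control over 25 CpGs, with 16 CpGs higher and 6 lower. The regions of SLC25A25 thus differed from each other far more than the libraries did. Within all SLC25A25 promoter CpGs the 50 in CpG islands averaged 1.18% in the Mdivi-1 library and 1.24% in the control, while the 68 outside islands averaged 81.9% in the Mdivi-1 library and 80.4% in the control. Of its 118 promoter CpGs 42 are also in the promoter of NAIF1.

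Carriers of phosphate and of di- and tricarboxylates had 5 promoters higher and 2 lower of 7. SLC25A1, the citrate carrier that supplies carbon for fatty acid synthesis, had 3.23% in the Mdivi-1 library and 2.89% in the control over 45 CpGs. SLC25A3 had 1.45% in the Mdivi-1 library and 1.19% in the control over 43 CpGs, of which 5 are shared with the pseudogene PPIAP8. SLC25A11, the oxoglutarate/malate carrier, also had a bare promoter, at 2.86% in the Mdivi-1 library and 2.70% in the control. The promoters of these 3 carriers were nearly free of methylation in both libraries.

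Of the other 4 promoters of this class 3 carried more. SLC25A10, the dicarboxylate carrier, had 45.5% in the Mdivi-1 library and 46.2% in the control over 9 CpGs. SLC25A21, the oxodicarboxylate carrier, had 44.1% in the Mdivi-1 library and 43.3% in the control over 11 CpGs. SLC25A34 had 61.4% in the Mdivi-1 library and 58.7% in the control over 29 CpGs, a difference of 2.64 points with counting errors of 1.502 and 13.0 points. With pooled reads that difference was -0.06 points, so its direction was not kept. SLC25A35 had 1.56% in the Mdivi-1 library and 2.17% in the control over 34 CpGs.

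Among carriers of amino acids, carnitine and related substrates, 9 promoters of 12 were higher and 3 lower. SLC25A2, a second ornithine carrier encoded by a gene without introns, had the highest promoter level of the family, 98.2% in the Mdivi-1 library and 97.1% in the control over 24 CpGs, 19 of them in an island. Its difference was 1.09 points, and -1.52 points with a minimum of 20 reads, which left only 2 CpGs. No CpG of the SLC25A2 promoter was under 87.5% in the Mdivi-1 library or under 88.2% in the control. SLC25A15, the main ornithine carrier, had no promoter CpG in the deposited annotation, and its gene body was at 17.8% in the Mdivi-1 library and 18.2% in the control.

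SLC25A18 and SLC25A22 encode glutamate carriers. SLC25A18 had the largest gain of the measured promoters, with 46.98% in the Mdivi-1 library and 42.0% in the control over 14 CpGs at chr22:18042197-18043156. Single CpGs ranged from 1.96% to 88.7% in the Mdivi-1 library and from 5.26% to 82.0% in the control, and 9 were higher and 5 lower with Mdivi-1. This gain of 4.99 points had counting errors of 2.005 and 8.30 points, at a mean coverage of 83.1 reads in the Mdivi-1 library and 63.1 in the control.

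The widest gap within the SLC25A18 promoter was at chr22:18042723, where 47 of 88 reads (53.4%) were methylated in the Mdivi-1 library and 19 of 56 (33.9%) in the control, with an unadjusted Fisher p of 0.0263 and an adjusted p of 1. Another SLC25A18 CpG had 48.5% in the Mdivi-1 library and 33.7% in the control, while the last of the promoter had 11.2% in the Mdivi-1 library and 19.6% in the control. The direction was thus not shared by every CpG of SLC25A18. SLC25A22 had 11.3% in the Mdivi-1 library and 11.5% in the control over 77 CpGs, 28 of them shared with PANO1.

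SLC25A12 and SLC25A13 encode the aspartate/glutamate carriers of the malate-aspartate shuttle. SLC25A12, the form used in neurons and muscle, had the largest loss, with 35.4% in the Mdivi-1 library and 38.9% in the control over 15 CpGs at chr2:172750759-172751630. Its counting errors were 1.65 and 10.1 points, with 5 CpGs higher and 8 lower. The difference of -3.51 points was -1.49 points with a minimum of 5 reads and -2.22 points with pooled reads. Of these 15 CpGs, 8 were under 10% by the mean of both libraries and the rest, farther from the island, were methylated. In that stretch the CpG at chr2:172751289 of SLC25A12 had 22 of 40 reads methylated (55.0%) in the Mdivi-1 library and 23 of 28 (82.1%) in the control, with an unadjusted p of 0.0360 and an adjusted p of 1. SLC25A13 had 36.8% in the Mdivi-1 library and 36.8% in the control over 28 CpGs.

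SLC25A20, which carries acylcarnitines into the matrix for fatty acid oxidation, had 40.8% in the Mdivi-1 library and 39.4% in the control over 7 CpGs. SLC25A29, a carrier of basic amino acids, had 5.89% in the Mdivi-1 library and 6.97% in the control over 50 CpGs, 48 of them shared with MIR345, and pooled reads turned its difference to a gain of 1.21 points. SLC25A47 and SLC25A48 stood at 23.1% and 22.7% in the Mdivi-1 library, against 22.7% and 21.2% in the control. The remaining promoters of this class, SLC25A38, SLC25A44 and SLC25A45, had 14.5%, 8.70% and 12.5% in the Mdivi-1 library, against 14.0%, 7.77% and 12.4% in the control. None of the 7 promoters in these sentences differed by 2 points or more.

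Carriers of cofactors, nucleotides and glutathione had 10 promoters higher and 2 lower of 12, with a median difference of 0.485 points. SLC25A26 imports S-adenosylmethionine, the donor of the methyl groups that methyltransferases use. Its promoter level was 8.19% in the Mdivi-1 library and 7.15% in the control over 29 CpGs, a difference of 1.03 points that was 2.38 points with pooled reads. The 27 CpGs at chr3:66271078-66271414 of SLC25A26 averaged 1.72% in the Mdivi-1 library and 0.930% in the control, and the other 2 CpGs, at an upstream start, 95.4% in the Mdivi-1 library and 91.2% in the control.

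The NAD+ carriers SLC25A51 and SLC25A52 and the glutathione carriers SLC25A39 and SLC25A40 form near relatives with unlike levels over their whole promoters. SLC25A52 had 71.8% in the Mdivi-1 library and 69.2% in the control over 18 CpGs, a difference of 2.61 points with counting errors of 1.78 and 10.7 points. SLC25A51 had 37.8% in the Mdivi-1 library and 37.2% in the control over 76 CpGs. Both NAD+ carrier genes were thus partly methylated over their whole promoters, whereas of the glutathione pair only SLC25A39 was. In the last 250 bases before the start the NAD+ pair was unlike. There SLC25A51 had 1.10% in the Mdivi-1 library and 1.14% in the control, and SLC25A52 84.1% in the Mdivi-1 library and 82.5% in the control. SLC25A39 had 57.5% in the Mdivi-1 library and 57.1% in the control over 82 CpGs. SLC25A40 had 1.31% in the Mdivi-1 library and 0.582% in the control over 73 CpGs, all of them in an island. The 19 island CpGs of SLC25A39 were also bare, at 1.52% in the Mdivi-1 library and 1.39% in the control. The glutathione pair thus differed through the 63 CpGs of SLC25A39 outside its island. Over whole promoters the distance between these relatives was far larger than any difference between the libraries, and it appeared in both.

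SLC25A17, a carrier of coenzyme A and related cofactors that sits in peroxisomes, had 20.5% in the Mdivi-1 library and 20.5% in the control. The folate carrier SLC25A32, the nucleotide carriers SLC25A33 and SLC25A36, and SLC25A16 and SLC25A42, both linked to coenzyme A, had promoter levels of 1.40% to 14.9% in the Mdivi-1 library and 1.12% to 14.9% in the control.

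The iron importers SLC25A28 and SLC25A37, also called mitoferrins, differed from each other over their whole promoters. SLC25A28 had 1.003% in the Mdivi-1 library and 0.926% in the control over 79 CpGs, all of them in an island. The 8 island CpGs of SLC25A37 were also bare, at 0.694% in the Mdivi-1 library and 0% in the control, and its 19 others were at 29.2% and 31.7%. SLC25A37, the form that serves haem synthesis in red cell precursors, had 20.8% in the Mdivi-1 library and 22.3% in the control over 27 CpGs, and pooled reads turned its difference of -1.53 points to 5.69 points. SLC25A27 and SLC25A30, close to the uncoupling proteins, had 5.605% and 1.74% in the Mdivi-1 library, against 5.07% and 0.885% in the control. SLC25A46, an outer membrane member with a role in mitochondrial shape, had 11.4% in the Mdivi-1 library and 9.84% in the control over 40 CpGs, a difference of 1.54 points with counting errors of 0.950 and 5.32 points.

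**Figure D3:**
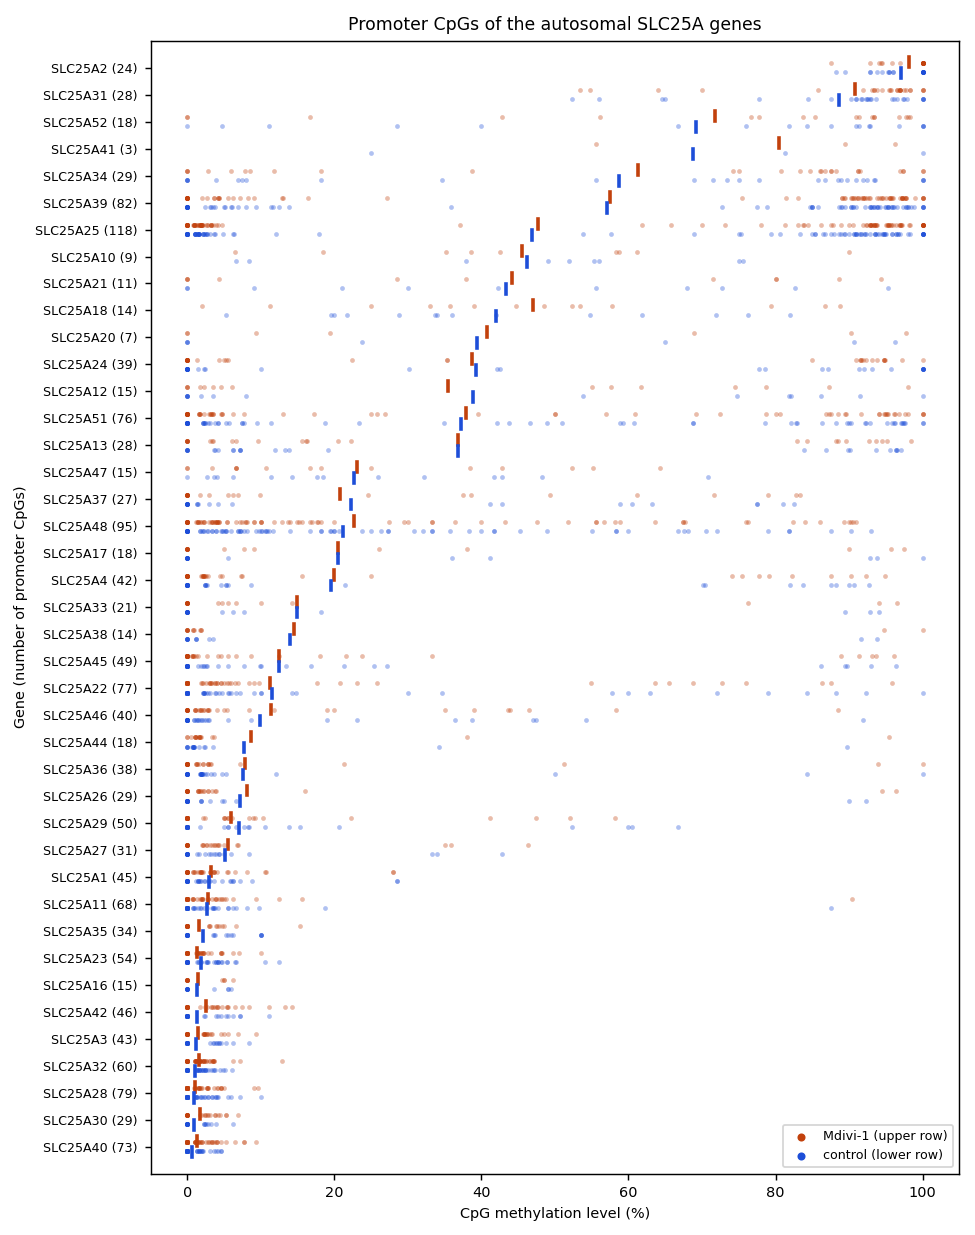
Methylation level in percent of every promoter CpG of 41 SLC25A genes, one gene per line with its number of CpGs, Mdivi-1 in orange above and the control in blue below, and vertical ticks for the mean of each library. Genes are sorted by the control mean. From SLC25A2 at 98.2% in the Mdivi-1 library and 97.1% in the control down to SLC25A40 at 1.31% in the Mdivi-1 library and 0.582% in the control, the means of both libraries lie close to each other, and many intermediate means arise from CpGs at both ends of the scale.

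Intermediate promoters were mostly a mix of bare and methylated CpGs. Of 17 promoters between 20% and 80% in the control, 13 held CpGs under 10% and CpGs over 90%, by the mean of both libraries. The same share over all autosomal promoters in that range was not computed. By the same mean, 71.5% of all members' promoter CpGs were under 10% and 13.1% over 90%, where 64.1% and 12.2% of all autosomal promoter CpGs were. Among the 17, 10 had at least 5 CpGs in an island and 5 outside, and in 7 of these the island was lower than the rest in the control. SLC25A39 had 1.52% in its island and 74.4% outside it in the Mdivi-1 library, against 1.39% and 73.8% in the control. SLC25A51 had 1.30% in its island and 64.4% outside it in the Mdivi-1 library, against 1.15% and 63.5% in the control. The order was turned in SLC25A21, where 6 island CpGs had 66.8% in the Mdivi-1 library and 60.8% in the control, and 5 others 16.9% in the Mdivi-1 library and 22.4% in the control.

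Promoter CpGs of members inside islands averaged 7.63% in the Mdivi-1 library and 7.35% in the control over 945 CpGs, against 13.7% and 13.6% for all autosomal promoter CpGs inside islands. Members' promoter CpGs outside islands, shores and shelves averaged 51.0% in the Mdivi-1 library and 48.5% in the control over 106 CpGs, a difference of 2.48 points, with 58 higher and 32 lower. For all autosomal promoter CpGs of that class the difference was 0.534 points. These CpGs can share reads and are no replicates of one another.

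Distance from the start ordered the levels in the same way. It was measured in the 25 members whose RefSeq promoter could be placed, of which those with at least 3 CpGs entered each stretch, so the genes differ between stretches. Over 18 genes the median of gene means from 500 to 1000 bases before the start was 47.2% in the Mdivi-1 library and 44.3% in the control. In the last 250 bases before the start, over 24 genes, it was 1.81% in the Mdivi-1 library and 1.30% in the control, with 17 genes higher and 7 lower. In the first 250 bases after the start, also over 24 genes, it was 1.231% in the Mdivi-1 library and 1.46% in the control, with 8 genes higher and 16 lower. Both stretches at the start were thus nearly bare in the middle member. From 500 to 1000 bases after the start, over 19 genes, it was still only 8.03% in the Mdivi-1 library and 8.16% in the control. From 1000 to 2000 bases after the start, over 9 genes, it was 91.9% in the Mdivi-1 library and 88.2% in the control. The genes of the 2 outermost stretches were split. Control quartiles were 2.30% and 84.1% in the one before the start and 5.13% and 88.9% in the one after it. By these medians both libraries were bare around the start and methylated only in the outermost stretches. The direction of the small differences at the start turned between neighbouring stretches.

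The second comparison took gene bodies, meaning CpGs in exons, introns, untranslated regions or noncoding transcripts of a member and in no promoter. All 43 members had at least 5 such CpGs, 2564 in all. Differences ran from -1.86 points in SLC25A21 to 5.24 points in SLC25A32, and 0 of 43 were past the rule of size, against 0.179% of 20096 autosomal gene bodies. The median body level was 36.0% in the Mdivi-1 library and 36.6% in the control, and the median difference 0.286 points, against 0.489 points over all autosomal gene bodies. Levels were higher with Mdivi-1 in 28 bodies (65.1%) and lower in 15, where 66.8% of all were higher. By the smaller counting error 7 of 43 (16.3%) differed by over 1.96 times, against 17.7% of all. By the larger error 0 of 43 did, and also 0 of all 20096 autosomal gene bodies, so that 0 is not particular to the members.

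The 5 largest gains were in SLC25A32, SLC25A40, SLC25A33, SLC25A12 and SLC25A52. SLC25A32 had 94.0% in the Mdivi-1 library and 88.7% in the control over only 8 CpGs, 6 higher and 2 lower, with counting errors of 2.10 and 5.36 points. SLC25A40 had 95.8% in the Mdivi-1 library and 92.4% in the control over 8 CpGs, with errors of 1.234 and 3.26 points. SLC25A33 had 26.0% in the Mdivi-1 library and 23.1% in the control over 64 CpGs, with errors of 0.902 and 10.2 points, and its gain of 2.83 points was 0.97498 points with a minimum of 20 reads. In SLC25A32 and SLC25A40 the gain sat on bodies that were already almost fully methylated and rested on few CpGs.

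SLC25A12 had 43.7% in the Mdivi-1 library and 41.2% in the control over 35 CpGs, the reverse direction of its promoter, with errors of 1.02 and 9.04 points, and with pooled reads its gain of 2.43 points was 5.65 points. SLC25A52 had 56.5% in the Mdivi-1 library and 54.3% in the control over 8 CpGs. The 5 largest losses were in SLC25A21, SLC25A47, SLC25A48, SLC25A18 and SLC25A28. SLC25A21 had 16.9% in the Mdivi-1 library and 18.7% in the control over 41 CpGs, and with a minimum of 20 reads its difference was 0.0298 points. In SLC25A48 the body difference of -1.07 points was 0.305 points with that minimum, so its direction turned. SLC25A28 had 36.0% in the Mdivi-1 library and 36.6% in the control over 29 CpGs, and with pooled reads its difference was -6.76 points. SLC25A18 had 70.8% in the Mdivi-1 library and 71.6% in the control, the reverse of its promoter.

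By role, carriers of adenine nucleotides had 5 bodies higher and 1 lower of 6, and carriers of phosphate and carboxylates 6 higher and 1 lower of 7. Carriers of amino acids and carnitine had 6 higher and 7 lower of 13, and those of cofactors, nucleotides and glutathione 8 higher and 4 lower of 12. Promoter and body differed in the same direction in 23 of 41 members. The share over all autosomal genes was not computed, so this count is not a trait of the members.

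The relation of promoter to body varied more between members than between libraries. In 11 of 41 members the promoter was above the body, in both libraries. SLC25A51 had a promoter at 37.8% and a body at 4.47% in the Mdivi-1 library, against 37.2% and 4.67% in the control. SLC25A40 was the opposite, with a promoter at 1.31% and a body at 95.8% in the Mdivi-1 library, against 0.582% and 92.4% in the control. Of 16 promoters under 10% in both libraries, 4 had bodies over 80% in both, namely SLC25A11, SLC25A30, SLC25A32 and SLC25A40. The 2 with bodies under 10% in both were SLC25A1 and SLC25A3. SLC25A3 was bare in its promoter and in the body CpGs measured, which were at 1.31% in the Mdivi-1 library and 1.11% in the control. SLC25A2 was methylated in promoter and body, with the body at 94.3% in the Mdivi-1 library and 94.5% in the control. Of the body CpGs, 55 of 56 in SLC25A3, 42 of 42 in SLC25A1 and 38 of 50 in SLC25A51 were in CpG islands. Those of SLC25A3 spanned only chr12:98987475-98988243, those of SLC25A1 chr22:19165063-19165464 and those of SLC25A51 chr9:37903064-37904118. The body levels of these 3 genes thus do not describe their whole bodies.

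**Figure D4:**
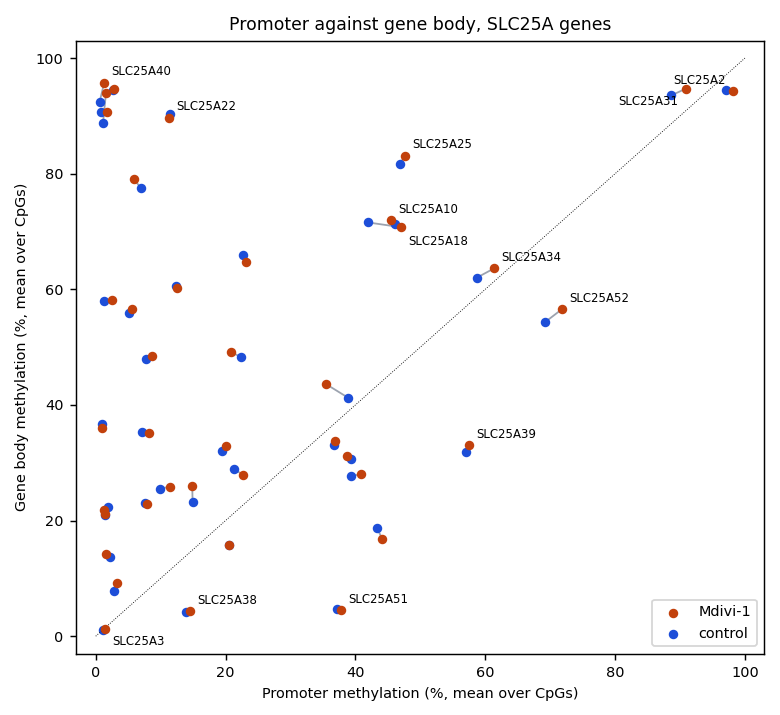
Gene body methylation against promoter methylation, both in percent as means over CpGs, for 40 SLC25A genes, with grey lines joining the Mdivi-1 point (orange) and the control point (blue) of each gene and a dotted line of equal levels. SLC25A2 and SLC25A31 lie at upper right, SLC25A3 at lower left and SLC25A40 at upper left, and the lines between libraries are short beside the distances between genes.

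The third comparison used windows of 1 kb on a fixed grid, in which a local difference is not averaged over a whole gene. Of 202 windows with at least 5 CpGs and a member CpG, 1 was past the rule of size, against 0.874% of 120155 autosomal windows, or 0.336% in its direction, lower with Mdivi-1. In 123 of the 202 (60.9%) the level was higher with Mdivi-1, against 58.7% of all. The window past the rule lay in an intron of SLC25A48, a carrier linked to choline, at chr5:135171112-135171156, annotated as CpG island. Its 5 CpGs averaged 45.4% in the Mdivi-1 library and 71.5% in the control, a difference of -26.0 points with counting errors of 7.86 and 19.1 points. Coverage was low, at a mean of 18.6 reads in the Mdivi-1 library and 10.4 in the control.

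All 5 CpGs of the SLC25A48 window were lower with Mdivi-1. The first had 5 of 19 reads methylated in the Mdivi-1 library and 4 of 10 in the control, and the second 15 of 18 in the Mdivi-1 library and 9 of 10 in the control. The third had 10 of 19 in the Mdivi-1 library and 10 of 10 in the control, with an unadjusted Fisher p of 0.0114. The fourth had 6 of 19 in the Mdivi-1 library and 5 of 11 in the control, and the fifth 6 of 18 in the Mdivi-1 library and 9 of 11 in the control, with an unadjusted p of 0.0209. Adjusted p was 1 for all 5, which lie within 45 bases and can share reads. The 62 other CpGs within 1 kb averaged 16.4% in the Mdivi-1 library and 17.6% in the control, a difference of -1.20 points, with 25 higher and 29 lower. With a minimum of 5 reads, of 20 reads or of 10 CpGs per window, 0 member windows were past the rule.

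**Figure D5:**
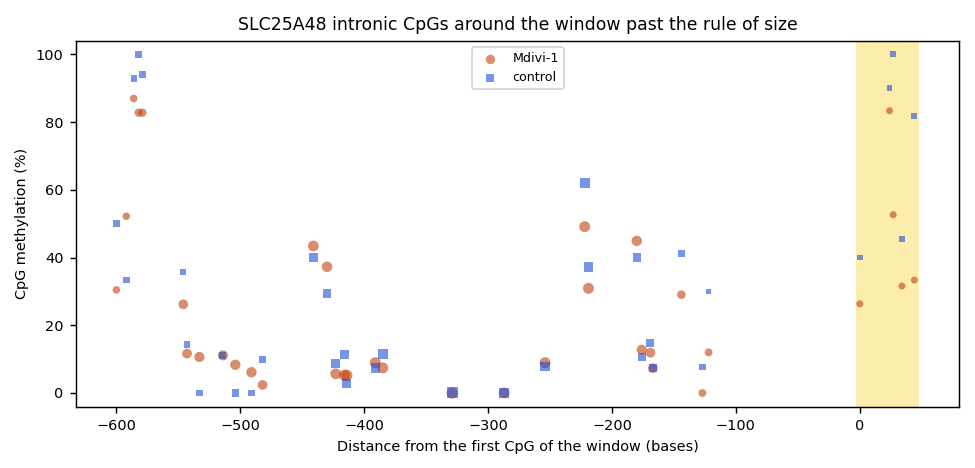
Methylation level in percent of SLC25A48 intronic CpGs against distance in bases from the first CpG of the window (shaded), with Mdivi-1 as orange circles and the control as blue squares, sized by coverage. The 5 CpGs in the shaded window are small, from few reads, and each is lower in Mdivi-1, while the CpGs before it are mixed.

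The widest gain of a member window was in an intron of SLC25A26 at chr3:66311012-66311641, with 93.1% in the Mdivi-1 library and 83.9% in the control over 5 CpGs. Its difference of 9.25 points had counting errors of 4.03 and 8.65 points and stayed under the rule. A window of SLC25A18 upstream of its start, at chr22:18042197-18042909, had 47.3% in the Mdivi-1 library and 41.4% in the control over 12 CpGs. With a size of 5 points in place of 10, 7 of 202 member windows were past the rule, 3 higher and 4 lower in the Mdivi-1 library, against 4.3% of all autosomal windows.

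Transporters that belong to the same family under other symbols, or work beside it, were set next to the members. Of 15 such promoters 9 were higher and 6 lower, with a median difference of 0.567 points, and 0 were past the rule of size. UCP1, the uncoupling protein of brown fat, had 89.7% in the Mdivi-1 library and 88.6% in the control. UCP2, which is broadly expressed, had 1.84% in the Mdivi-1 library and 2.35% in the control. These uncoupling protein genes thus stood at opposite ends of the scale in both libraries. UCP3, the form of skeletal muscle, had 80.5% in the Mdivi-1 library and 87.9% in the control over 9 CpGs, a difference of -7.42 points that was 0.00820 points with a minimum of 20 reads. MPC1 and MPC2, which together form the pyruvate carrier, had 2.09% and 1.12% in the Mdivi-1 library, against 1.38% and 1.41% in the control.

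Promoter levels of markers were the only check of the cell line that these libraries allow. Of 8 sympathetic neuroblast markers, 5 were under 20% in the control, among them HAND2, GATA3, ISL1 and DBH, with a median over the 8 of 4.60% in the Mdivi-1 library and 6.08% in the control. Of 8 markers of blood, fibroblasts, epithelium and endothelium, 5 had at least 5 promoter CpGs, of which 2, CDH5 and COL1A1, were under 20% in the control, with a median over the 5 of 26.3% in the Mdivi-1 library and 21.9% in the control. These levels are not expression, and what part cell identity has in the members' levels was not tested.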

How the data were processed

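Genomic DNA of SH-SY5Y cells was captured with the SureSelectXT Methyl-Seq kit, converted with bisulfite and sequenced, per the labels' protocols. Reads were aligned to hg19 with BSMAP, whose version is not given, per the submitters' processing notes. The study's RNA-seq was not analysed here. For each of 2773807 positions the authors deposited a methylated fraction and a coverage for each library, a signed difference score of the fractions, and gene, promoter and CpG island annotation. Coverage as deposited is an estimated count, since some values are not whole.

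Only 33.3% of the deposited control fractions matched whole reads at the deposited coverage. Nearly all did after scaling coverage up by 1.233, which is 37 over 30, the libraries' median depths in reads. The values show this step and no source used here records it. Whole methylated reads were recovered from it, and 10798 positions were not used, because coverage was fractional (10751) or no single count was found (47).

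A CpG needed 10 or more reads in each library. Entries of the gene annotation were split on the semicolon. Levels are means over CpGs. Fisher exact tests used Benjamini-Hochberg adjustment over all 2458231 autosomal CpGs, and called an adjusted p under 0.05 with 20 points of difference. Counting errors are binomial and cover counting only. With 1 library per group no test over genes was made. Named were members with a promoter level of 20% or more in the control, the 5 largest gains and 5 largest losses among promoters and among gene bodies, members with a window, promoter, body or CpG past its rule, and SLC25A1, SLC25A3, SLC25A4, SLC25A12, SLC25A26, SLC25A46, UCP1, UCP2, UCP3, MPC1 and MPC2. Individual results of 1 member and 1 marker are not reported here; counts and medians include them, and figures leave the member out. Further members were named only to complete a role or a short count. The members, lists and rules were chosen with earlier results of these data known. Alternatives were other coverage minimums, pooled reads, deposited fractions, removal of CpGs shared with other genes, other CpG numbers and sizes, promoter CpGs kept in bodies, and means over genes. Splitting entries on the comma and leaving out promoters of several start regions were added after seeing the data.

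Promoter sequences came from RefSeq, GRCh38.p14. Of 45 promoters of 35 members, 28 of 25 members were placed, which asked for at least 8 CpGs matching the table's spacing. Scripts were tested on simulated data. Software was Matplotlib 3.10.9, Numba 0.67.0, SciPy 1.17.1, pandas 2.3.3 and NumPy 2.4.6 under Python 3.11.15.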

Additional observations from a re-analysis of the deposited data

How the results depend on the processing

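The median promoter difference of 0.471 points stayed positive under the alternatives run, between 0.456 and 0.736 points. The median gene body difference of 0.286 points lay between 0.216 and 0.452 points. Taken as means over genes, the differences were 0.513 points for promoters and 0.578 points for gene bodies. Promoters and gene bodies past the rule of size, and CpGs called by the Fisher test, were 0 under each alternative run. The single member window past the rule was 1 with pooled reads, deposited fractions, shared CpGs left out or the comma split, 0 with a minimum of 20 reads, 0 with a minimum of 5 reads and 0 with at least 10 CpGs, and 7 with a size of 5 points. Pooled reads moved 10 of 42 named differences beyond their counting error and turned the sign of 9. SLC25A24 was one of these, with 2.31 points by pooled reads. A minimum of 20 reads turned the sign of 7 of 41 and a minimum of 5 reads that of 5 of 42, SLC25A48's promoter among them at -1.20 points. The deposited fractions turned 1 of 42, and leaving out shared CpGs 1 of 39. The causes were not tested. No paired analysis was possible because each group held 1 library and the labels give no replicate numbers. The lower coverage of the control limits the precision of regions such as the SLC25A48 window.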
